A study of Mus musculus with 4 samples.

Results

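Embigin (Emb), basigin (Bsg) and neuroplastin (Nptn) are glycoproteins of the immunoglobulin superfamily that span the cell membrane once, and Slc16a1 and Slc16a3 encode the proton-linked monocarboxylate transporters MCT1 and MCT4. These 5 genes were followed among the 23366 gene rows of 4 read-count files, and all 5 passed the filter on low counts that left 13199 genes for testing. Emb was chosen by its adjusted p for knockdown against control in these same files, and the other 4 were taken, with their values known, for their relation to it. The difference in Emb between the groups is therefore given as a description.

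Monocarboxylate transporters carry lactate or pyruvate together with a proton across the plasma membrane, which lets glycolytic cells release lactate and others take it up. Those named here reach the cell surface together with an accessory glycoprotein. Basigin serves MCT1 and MCT4, whereas embigin is the preferred partner of MCT2, the product of Slc16a7. Neuroplastin can also accompany MCT2, and it shares with basigin a role as a subunit of plasma membrane calcium pumps.

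The libraries came from R1 mouse embryonic stem cells of strain 129X1 x 129S1, kept in LIF and serum on gelatin. The 2 control libraries came from cells transfected with a non-targeting hairpin, and the 2 knockdown libraries from cells transfected with a hairpin against Cyrano, both in the vector pSicoR-Ef1a-mCh-Puro. Cyrano, a noncoding transcript that binds the microRNA miR-7, stands in the series' title between microRNA activity and self-renewal. Transfected cells were enriched with puromycin or by flow cytometry, so each library is a pool of cells.

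Gene counts summed to between 16854403 and 22321102 reads a library, and 45S ribosomal RNA (Rn45s) took 15.9% to 17.5% of them in the controls and 11.03% to 12.3% after knockdown. Cyrano (listed as 1700020I14Rik) had 24.8 and 15.1 CPM in control libraries 1 and 2 and 3.99 and 3.16 CPM in knockdown libraries 1 and 2, as labelled. CPM here are counts per 1000000 reads on library sizes scaled for composition. All 10 embryonic stem cell markers examined were detected and tested.

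The microRNA that Cyrano binds gives one sequence feature by which the 5 transcripts can be compared. The mature miR-7 sequences of the mouse are shown because their shared seed (bases 2 to 8, in capitals) sets the letters searched for in the 3′ untranslated regions.
mmu-miR-7a-5p: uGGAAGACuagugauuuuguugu
mmu-miR-7b-5p: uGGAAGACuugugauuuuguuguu
The complement of the seed reads GTCTTCC, and a shorter match followed by an A reads TCTTCCA; both were sought on the transcript strand of the annotated 3′ untranslated region that was longest for each gene. No match of either kind was found in the 1353 bases of Emb, the 412 of Bsg or the 2740 of Slc16a1. TCTTCC with any base around it had 1 site in Slc16a1, 2 in Nptn and 3 in Slc16a3, the longer matches included. It had none in Emb or Bsg. Slc16a3 held 1 match of each kind within 2736 bases, and Nptn held 1 within 3890 bases. These 3 stretches follow, with the match in capitals.
Slc16a3, first match: actgcctgcaggGTCTTCCctgatcccacc
Slc16a3, second match: gccctcattagcTCTTCCAggtctgcctgc
Nptn match: tccttttccaccTCTTCCAcaaatgctggg
The Slc16a3 stretches lie at chr11:120958520-120958549 and chr11:120958785-120958814, and the Nptn stretch at chr9:58652973-58653002, all on the plus strand of GRCm38. Of the coding transcripts with an annotated 3′ untranslated region, 3 of 3 for Slc16a3 contained the first match and 2 of 3 the second, but only 1 of 6 for Nptn contained its match. GTCTTCC or TCTTCCA occurred in 28.4% of 12617 tested genes. The share was 41.4% of those with a region as long as that of Slc16a3 and 52.5% of those with one as long as that of Nptn (length within 25%). A match of letters is a description of the transcript and not evidence of binding.

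Embigin was the 1 member of the 5 that passed the test, the outcome by which it was chosen. Emb had 708 and 760 reads in control libraries 1 and 2 and 1848 and 1923 reads in knockdown libraries 1 and 2. Scaled, this gave 43.1 and 40.2 CPM for the controls, against 82.8 and 89.3 CPM for the knockdown libraries. Both knockdown libraries lay above both controls, an order found in 22.3% of all tested genes, and the lower of them exceeded the higher control by 92.2%.

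The group means of Emb were 41.7 ± 2.00 CPM in the controls and 86.1 ± 4.63 CPM after knockdown (SD, n = 2 each), a 2.07-fold difference. The log2 fold change was 1.05 ± 0.15 (SE), with a 95% interval of 0.71 to 1.38. By the quasi-likelihood test of edgeR the adjusted p was 0.039, the value by which Emb was chosen, and nothing is rested on it. At an adjusted p under 0.05, 0.0833% of the 13199 tested genes were called in either direction, 0.0379% as higher and 0.0455% as lower. By size of rise among all 13199 tested genes, those with low counts included, Emb stood at rank 222. Among the 8379 tested genes with a mean of at least 10 CPM, 11 had a rise at least as large as that of Emb, Emb included.

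The size of the Emb difference was similar in fits with fewer libraries or another tool, but its call was not kept in all of them. In a fit without 1 library, the lone library of its group is assumed to vary like the pair in the other group. Without control library 1 the log2 fold change was 1.10 with an edgeR adjusted p of 0.13, and without control library 2 it was 1.00 with 0.15. Without knockdown library 1 the adjusted p was 0.0010, and without knockdown library 2 it was 0.012. By limma-voom it was 1.05 with an adjusted p of 0.055, and without robust estimation in edgeR 1.05 with 0.065. In bulk RNA, more cells with Emb and more Emb RNA per cell cannot be told apart.

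Basigin, the most abundant of the 3 chaperones, had 208 and 248 CPM in control libraries 1 and 2 and 219 and 226 CPM in knockdown libraries 1 and 2. Both knockdown values lay between the controls. The log2 fold change of Bsg was -0.03 ± 0.15 (SE), with a 95% interval of -0.35 to 0.28 and an edgeR adjusted p of 0.96.

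Neuroplastin had 64.2 and 80.6 CPM in control libraries 1 and 2 and 63.2 and 76.9 CPM in knockdown libraries 1 and 2, so that its groups overlapped too. The log2 fold change of Nptn was -0.05 ± 0.17 (SE), with a 95% interval of -0.42 to 0.32 and an edgeR adjusted p of 0.95.

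Nptn shares 344 exon bases with Rec114 on the opposite strand (GENCODE M21). Rec114, listed under its older symbol 2410076I21Rik, had 173 to 229 reads a library, against 1055 to 1656 for Nptn. Emb shares 686 exon bases with Gm17509 on the opposite strand, which has no row of its own in the files. The strand setting of the counting was not stated in the labels, and at these bases reads of the opposite strand cannot be told apart.

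**Figure D1:**
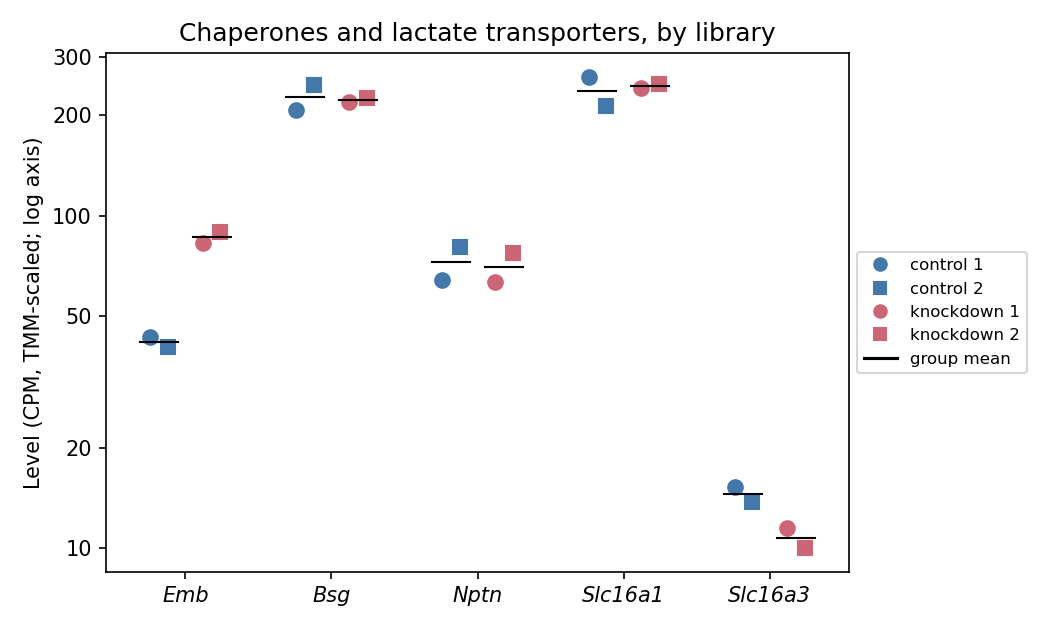
Level of each of the 5 genes in each library, in CPM on a log axis, with circles and squares for libraries 1 and 2 and a line at the mean of each group (n = 2). The Emb knockdown libraries, at 82.8 and 89.3 CPM, lie above the controls at 43.1 and 40.2, the Slc16a3 knockdown libraries lie below their controls, and the other 3 genes overlap.

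Slc16a1 encodes MCT1, a widely expressed transporter that works in either direction. It had 262 and 214 CPM in control libraries 1 and 2 and 241 and 249 CPM in knockdown libraries 1 and 2. The knockdown values lay between the controls, as for Bsg. The log2 fold change of Slc16a1 was 0.04 ± 0.15 (SE), with a 95% interval of -0.28 to 0.37 and an edgeR adjusted p of 0.95.

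Slc16a3 encodes MCT4, a transporter associated with lactate export from strongly glycolytic cells and inducible through hypoxia-inducible factor. It had 251 and 260 reads in control libraries 1 and 2, against 257 and 215 in knockdown libraries 1 and 2, whose totals were larger. Scaled, this gave 15.3 and 13.8 CPM for the controls, against 11.5 and 9.99 CPM for the knockdown libraries. Both knockdown libraries lay below both controls, an order seen in 21.3% of all tested genes, and the higher of them was 16.4% under the lower control.

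The difference in Slc16a3 did not pass the test. Its means were 14.5 ± 1.06 and 10.8 ± 1.08 CPM (SD, n = 2 each), and the log2 fold change was -0.43 ± 0.24 (SE), with a 95% interval of -0.95 to 0.08. The edgeR adjusted p was 0.50, and the unadjusted p was 0.092. At 215 to 260 reads, counting error alone came to between 6.20% and 6.82% of a library's value. Slc16a3 was also the member with 2 miR-7 matches among the sequences printed above, and whether these matches bear on its level was not tested.

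**Figure D2:**
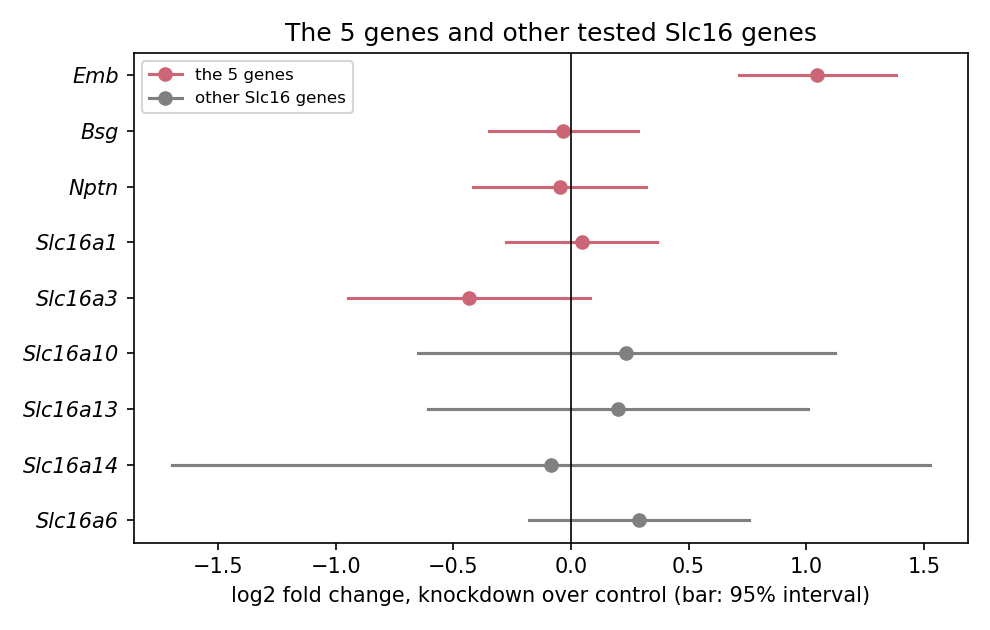
Log2 fold change of knockdown over control with its 95% interval, for the 5 genes (red) and 4 other tested genes of the Slc16 family (grey). The interval of Emb, from 0.71 to 1.38, lies above 0, and each of the other 8 intervals contains 0. Emb was chosen by its adjusted p in these data, so the place of its interval is a description.

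Because levels of different genes can be compared only per length, CPM were divided by the annotated exon length in kilobases. Bsg stood first in each library, with a mean of 126 ± 15.3 CPM per kilobase in the controls and 123 ± 2.73 after knockdown (SD, n = 2 each). Slc16a1 came next, at 53.7 ± 7.72 and 55.4 ± 1.26 CPM per kilobase. The main chaperone of MCT1 and MCT1 itself were thus the most abundant transcripts of the 5 in both groups.

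Emb and Nptn followed at lower levels per length. Emb went from 6.03 ± 0.289 CPM per kilobase in the controls to 12.5 ± 0.671 after knockdown, while Nptn had 11.7 ± 1.88 and 11.4 ± 1.58 (SD, n = 2 each). Emb stood below Nptn in both control libraries and above it in both knockdown libraries, but in the latter the means differed by less than the SD of Nptn. With the longest transcript in place of all annotated exons, Emb was at 14.3 and 29.4 CPM per kilobase and Nptn at 16.0 and 15.5, and Emb then stood above Nptn in control library 1 also. Slc16a3 was last in each library by either length, at 2.73 ± 0.199 and 2.02 ± 0.203 CPM per kilobase of exon.

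Shares within a library do not depend on how libraries are scaled to each other. Of the reads of Emb, Bsg and Nptn together, Emb took 13.7% (95% exact binomial interval 12.7% to 14.6%) in control library 1 and 10.9% (10.2% to 11.7%) in control library 2. It took 22.7% (21.8% to 23.6%) in knockdown library 1 and 22.8% (21.9% to 23.7%) in knockdown library 2. The intervals of the controls did not overlap each other, and both knockdown libraries lay above both controls. These intervals cover counting error within 1 library only and not the spread between libraries. They also treat each read as an independent molecule, which duplicate reads from PCR are not.

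The Bsg share was correspondingly lower after knockdown, at 60.04% and 57.7% against 66.0% and 67.2% in the controls, although its own level overlapped between the groups. The Nptn share was 17.3% and 19.6% after knockdown and 20.4% and 21.9% in the controls. Summed over the 3 chaperones, the level was 315 and 368 CPM in control libraries 1 and 2 and 365 and 393 CPM in knockdown libraries 1 and 2, so that the sums overlapped.

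Of the reads of Slc16a1 and Slc16a3 together, Slc16a3 took 5.51% and 6.06% in control libraries 1 and 2. In knockdown libraries 1 and 2 it took 4.56% and 3.86%. The groups did not overlap, but the exact binomial intervals of control library 1 (4.87% to 6.21%) and knockdown library 1 (4.03% to 5.13%) did. The summed transporter level was 277 and 227 CPM in control libraries 1 and 2 and 253 and 259 CPM in knockdown libraries 1 and 2.

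**Figure D3:**
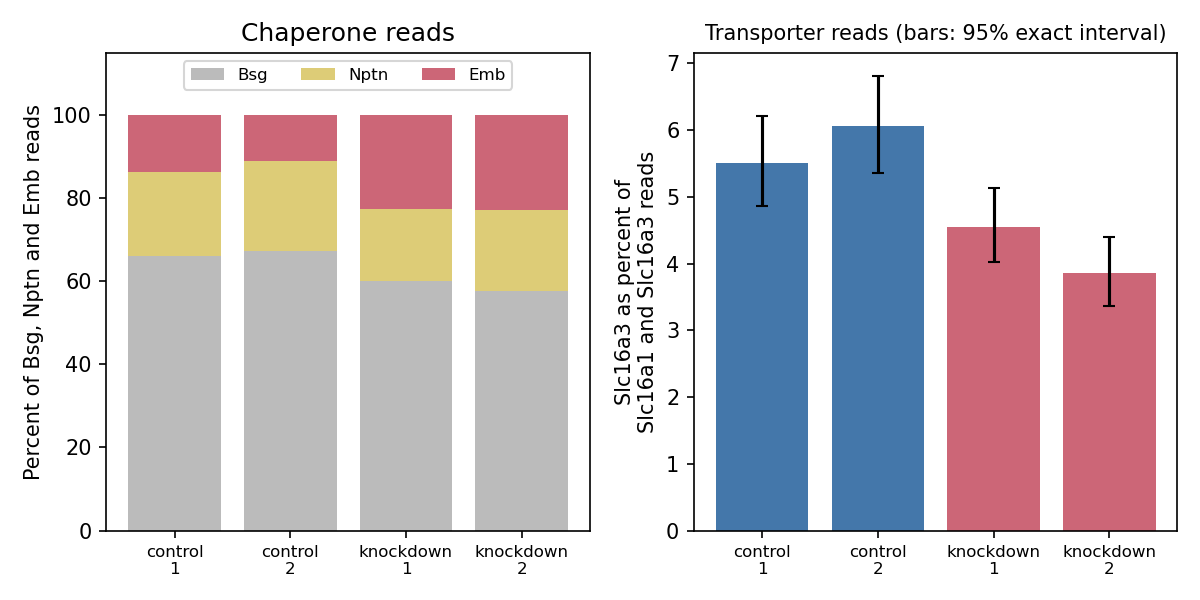
Left, the percent of the reads of Bsg, Nptn and Emb that each gene took in each library; right, Slc16a3 as a percent of the reads of Slc16a1 and Slc16a3, with 95% exact binomial intervals. The Emb share is 13.7% and 10.9% in control libraries 1 and 2, below its 22.7% and 22.8% in knockdown libraries 1 and 2.

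Most of the other Slc16 genes examined had few reads or none. Slc16a7, which encodes the preferred transport partner of embigin, MCT2, had no read in 3 libraries and 4 reads in knockdown library 1. A count of 0 allows up to 3 reads, or 0.183 CPM in control library 1 and 0.139 CPM in knockdown library 2. Slc16a4 and Slc16a8, the latter encoding the retinal lactate transporter MCT3, had no read in any library.

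Of 11 other family members examined, 4 passed the filter and none was called by edgeR in either direction, nor did any have an unadjusted p under 0.05. Their median log2 fold change was 0.22, against -0.002 for all tested genes. Slc16a6, with the most reads of them, had 16.6 ± 0.103 CPM in the controls and 20.3 ± 3.20 CPM after knockdown (SD, n = 2 each), and its log2 fold change was 0.29 ± 0.22 (SE). Slc16a10, an aromatic amino acid transporter gene, had 0.24 ± 0.41, Slc16a13 had 0.20 ± 0.37, and Slc16a14 had -0.09 ± 0.74.

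Genes that make, use or move lactate and pyruvate inside the cell gave no call. Of 19 listed, 15 were tested, 8 with a log2 fold change above 0 and 7 below, with a median of 0.007, where 49.8% of all tested genes lay above 0. At an unadjusted p under 0.05, 3 were higher and 1 was lower, where 11.6% of all tested genes passed, 6.18% as higher and 5.43% as lower. Pcx, which encodes pyruvate carboxylase, had a log2 fold change of -0.57 ± 0.17 (SE; edgeR adjusted p = 0.22). Mpc2, a subunit of the mitochondrial pyruvate carrier, had 22.2 ± 2.75 CPM in the controls and 32.7 ± 2.46 CPM after knockdown (SD, n = 2 each), a log2 fold change of 0.56 ± 0.19 (adjusted p = 0.28).

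Surface partners of basigin and neuroplastin (17 listed, 15 tested) included cyclophilins, integrins, CD98 subunits and the plasma membrane calcium pumps. None was called, no unadjusted p was under 0.05, and the median log2 fold change was -0.12. The lowest unadjusted p values belonged to Mmp14, a membrane-bound matrix metalloproteinase gene (-0.24 ± 0.16, SE), and Cd44, a hyaluronan receptor gene at under 1 CPM (-1.08 ± 0.86). Atp2b1, a calcium pump gene, had a log2 fold change of -0.21 ± 0.20.

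Carbonic anhydrases and bicarbonate or proton exchangers, which supply or remove the protons that travel with lactate, were also without a call. Of 8 tested genes 3 had a log2 fold change above 0, and the median was -0.19. In 5 of the 8 both knockdown libraries lay below both controls, an order found in 21.3% of all tested genes, and in 1 they lay above. Car4, the membrane-anchored carbonic anhydrase, had 3.74 ± 0.646 CPM in the controls and 7.42 ± 1.29 CPM after knockdown (SD, n = 2 each), a log2 fold change of 0.99 ± 0.33 (SE; edgeR adjusted p = 0.26). Slc4a8, a sodium-driven bicarbonate exchanger gene, had -0.61 ± 0.28 (adjusted p = 0.42).

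Hypoxia-inducible factors and their targets were examined because Slc16a3 is one such target. Of 14 tested, 7 lay above 0 and 7 below, with a median log2 fold change of 0.03 and no call. At an unadjusted p under 0.05, 2 were higher and 1 was lower, where 6.18% and 5.43% of all tested genes were. Pdk1, the pyruvate dehydrogenase kinase gene that also stands in the lactate and pyruvate list, had 0.47 ± 0.17 (SE, edgeR adjusted p = 0.30). P4ha1, a subunit gene of collagen prolyl hydroxylase, had 0.58 ± 0.22 (0.34). Ndrg1, the 1 that was lower, had -0.70 ± 0.28 (0.35), with both knockdown libraries below both controls. Hif1a itself had -0.04 ± 0.15.

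**Figure D4:**
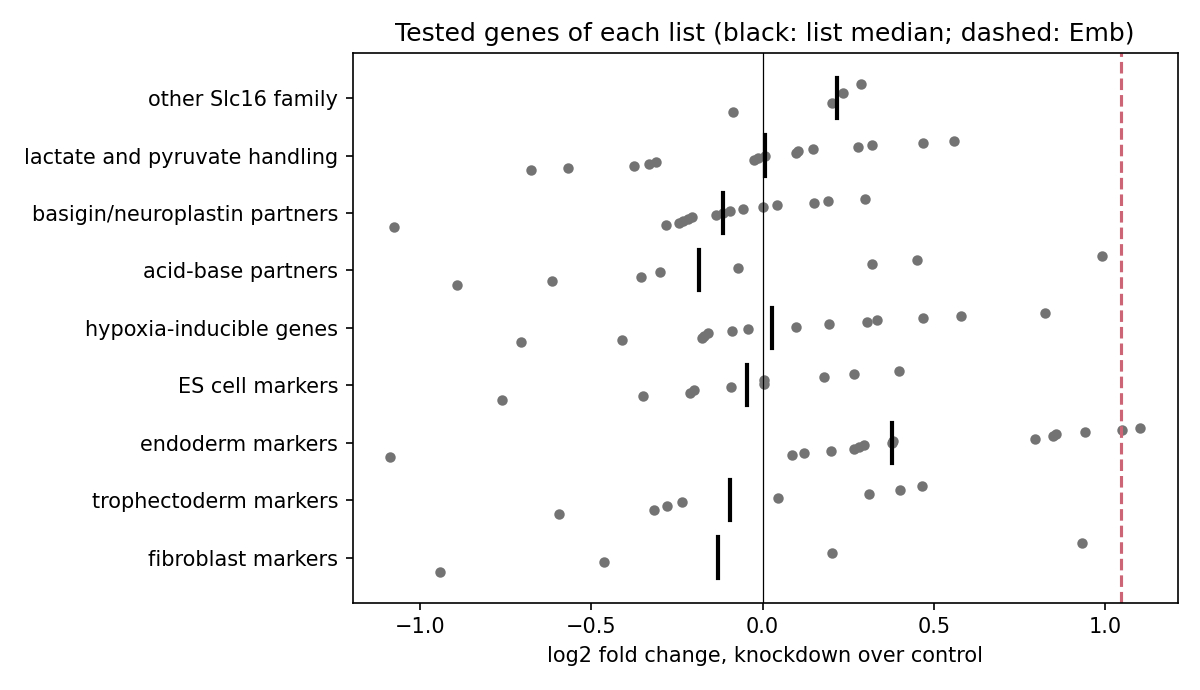
Log2 fold change of knockdown over control for each tested gene (grey points) of the 9 lists, with the list's median as a black bar and Emb as a dashed line at 1.05. The median of the endoderm markers is 0.38, and those of the other lists lie between -0.19 and 0.22.

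Most endoderm markers lay on the same side of 0 as Emb. Of 17 listed, 15 were tested, 14 had a log2 fold change above 0, where 49.8% of all tested genes did, and the median was 0.38. In 10 of the 15, both knockdown libraries lay above both controls, against the 22.3% of all tested genes, and 7 were higher and 1 lower at an unadjusted p under 0.05. None was called by edgeR over all genes. The 1 lower marker was Hnf4a, with a log2 fold change of -1.09 ± 0.40 (SE, edgeR adjusted p = 0.32). Both its knockdown libraries lay below both controls. The lowest p values belonged to Pdgfra, a receptor gene of primitive endoderm (1.10 ± 0.23, SE; adjusted p = 0.093), and the transcription factor gene Gata4 (0.94 ± 0.25; 0.18).

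The summed level of the endoderm list was 1506 to 1796 CPM in the controls and 1826 to 2248 CPM after knockdown, and Ttr had no read in any library. Matrix genes weighed most in this sum. In the controls the means of Col4a1, Lama1 and Sparc were 415, 362 and 361 CPM, against 17.4 CPM for Gata4. After knockdown they were 540, 416 and 393 CPM, against 33.4 CPM for Gata4. The part of endoderm-like cells in the Emb difference was not tested.

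Embryonic stem cell markers differed in both directions. In 4 of the 10 the knockdown pair lay wholly under the control pair, where 21.3% of all tested genes did so, and in 3 wholly over it, where 22.3% did. At an unadjusted p under 0.05, 2 of the 10 were lower and 1 was higher, where 5.43% and 6.18% of all tested genes were. None of the 10 was called by edgeR over all genes. Nanog, a core pluripotency factor gene, had 216 and 228 CPM in control libraries 1 and 2 and 129 and 133 CPM in knockdown libraries 1 and 2, a log2 fold change of -0.76 ± 0.14 (SE; edgeR adjusted p = 0.070). Dppa5a, a gene of pluripotent cells, had 0.40 ± 0.16 (0.35), and Esrrb, an orphan nuclear receptor gene of the naive state, had -0.35 ± 0.15 (0.37). The median of the list was -0.04, and its summed level was 4863 to 5152 CPM in the controls and 4665 to 4822 CPM after knockdown, lower in both knockdown libraries. The part of these differences in that of Emb was not tested.

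Of 8 tested trophectoderm markers 4 lay above 0, with a median of -0.09 and summed levels of 79.6 to 89.6 CPM in the controls and 86.1 to 91.8 CPM after knockdown. The lowest p values belonged to the transcription factor genes Tfap2c (0.40 ± 0.24, SE; edgeR adjusted p = 0.54) and Eomes (-0.32 ± 0.30; 0.73). Of 10 fibroblast markers 4 were tested and Col3a1, Postn, Dcn and Lum had no read in any library. Summed over the 10 fibroblast markers, levels were 36.7 to 47.0 CPM in the controls and 34.3 to 60.1 CPM after knockdown. Most of this was Thy1, with 38.02 and 21.55 CPM in control libraries 1 and 2 and 48.02 and 20.39 CPM in knockdown libraries 1 and 2. The transcription factor gene Twist1 had a log2 fold change of 0.93 ± 0.38 (SE; edgeR adjusted p = 0.36), and the collagen gene Col1a1 had -0.94 ± 0.55 (0.53).

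The genes whose levels over the 4 libraries ran most like those of Emb were sought by the distance between log2 CPM deviations from each gene's own mean, among 8378 other genes with a mean of at least 10 CPM. The nearest was Cpe, which encodes the prohormone-processing enzyme carboxypeptidase E, at a distance of 0.135. Cpe had 16.4 and 15.5 CPM in control libraries 1 and 2 and 35.1 and 37.1 CPM in knockdown libraries 1 and 2. Next were 1700013H16Rik at 0.151, the homeobox gene Rhox13 at 0.152, 2410012M07Rik at 0.166 and Mios at 0.178, whose log2 fold changes ran from 0.89 to 1.10. With 4 libraries, such a likeness mostly restates the difference between the groups.

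The nearest gene to each of the other members was Pef1 for Bsg, Aldh18a1 for Nptn, Fam98a for Slc16a1 and Nt5c for Slc16a3. Their distances ran from 0.0130 to 0.0355. The distance keeps the size of the deviations, so genes that differ little between libraries lie close to many others. These values are therefore not comparable with the 0.135 of Cpe from Emb. For Bsg and Nptn, control library 2 was the highest of the 4 libraries, while for Slc16a1 it was the lowest.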

How the data were processed

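Poly(A) RNA from 4 libraries, 2 per group by their titles, was counted per gene symbol. The deposited files hold raw read counts, and per the submitters' processing notes the tools were HTSeq, TopHat, bedtools and SAMtools and the build mm9. Not given in the sources used here were versions, annotation and strand setting. The 5 tallies that name no gene were left out, of which reads without a unique alignment made up 26.1% to 32.8% of all tallied reads. Losing those reads lowers counts of genes with near-identical copies.

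Counts were fitted in edgeR 4.0.16 (R 4.3.3) with filterByExpr (minimum count 10), TMM factors (0.976 to 1.037), robust glmQLFit and glmQLFTest on the group alone, two-sided, with Benjamini-Hochberg adjustment over 13199 genes at 0.05. Standard errors were derived from the log2 fold change and its F statistic. The procedure was tested on simulated data. Alternatives used DESeq2 1.42.0, limma 3.58.1, other factors and filters, left-out libraries, a replicate block, and a per-library spline offset for transcript length and GC content (99.4% of tested genes). For a single value, exact permutation of 2 libraries against 2 reaches p = 0.333 at the lowest. The design text calls the libraries biological replicates without saying how cultures were separated, so p-values reflect only the spread among them. The common biological coefficient of variation was 17.4%.

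Exon lengths and 3′ untranslated regions came from GENCODE M21 (GRCm38, not the build of the files), in which 23012 of 23366 symbols matched, 1273 of them through a RefSeq synonym. Mature miRNAs came from RefSeq (GRCm38.p6). The members and lists were chosen with earlier results of these data known. The genes named were the 5 members, the tested Slc16 genes of the list (1 item is not reported here), in each other list the called genes and the 2 with the lowest p, and the genes nearest to each member by pattern. Esrrb, Slc16a7, Slc16a4, Slc16a8, Atp2b1, Hif1a, Ndrg1, Hnf4a, Col4a1, Lama1, Sparc, Thy1 and genes without a read were named after their values were seen.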

Additional observations from a re-analysis of the deposited data

How the results depend on the processing

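The log2 fold change of Emb kept its direction in each of 16 alternatives, between 0.97 and 1.10, with a call in 12. The call was lost by limma-voom (1.05), without robust estimation (1.05), without control library 1 and without control library 2. Over left-out libraries it ran from 1.00 to 1.10 with adjusted p values from 0.0010 to 0.15. Slc16a3 kept its direction in each of 16 alternatives, between -0.55 and -0.31, and was called in none. Bsg, Nptn and Slc16a1 were called in none, and their signs changed: with library size only, Bsg was at 0.021 and Nptn at 0.0080. Over left-out libraries Bsg ran from -0.15 to 0.10, Nptn from -0.20 to 0.12 and Slc16a1 from -0.10 to 0.20. With library size only the median of all genes was 0.052. Leaving out Rn45s was chosen after seeing the data, and it changed no call among the members.

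Over all genes 5 were called higher and 6 lower. DESeq2 called 71 and 62, limma-voom 1 and 2, and edgeR without robust estimation 1 and 3. Library size only gave 32 and 18, upper-quartile factors 10 and 16, and RLE factors 2 and 4. The CPM filter gave 2 and 4, and no filter 174 and 158. Over left-out libraries they ran from 0 to 60 higher and from 0 to 131 lower. The cause was not tested. The replicate numbers are not stated to pair cultures, and differences between libraries 1 and 2 correlated at 0.24 between the groups across genes. With the replicate block 504 genes were higher and 451 lower, and with the block and the length and GC offset 349 and 264. Emb stayed called in both block fits, at 1.05 and 0.97 (edgeR adjusted p of 3.7e-09 and 0.00092), and no other member was called. These p values test again a gene chosen on this same contrast, under a pairing that is only assumed, and nothing is rested on them.

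The difference in the Emb share of chaperone reads, 10.4 percentage points, ran from 9.05 to 11.8 over left-out libraries and was 4.25 with reads per exon length. For Slc16a3 the difference of -1.58 ran from -1.93 to -1.23. With the longest transcript, the Emb level after knockdown was 29.4 CPM per kilobase in place of 12.5. Of the 5 genes nearest to Emb, 4 were the same with a minimum of 1 CPM.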
